A study of Mus musculus with 6 samples.

Results

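The gamma-crystallin genes were followed in RNA sequencing of the transition zone of the embryonic mouse lens. The members were chosen by symbol and number 8 of the 23420 genes in the count table: Cryga, Crygb, Crygc, Crygd, Cryge, Crygf, Crygn and Crygs. All 8 were found, and all 8 passed the filter on low counts that left 12257 tested genes. The transition zone is the band at the lens equator where epithelial cells leave the cell cycle and start to elongate into fibre cells. The 6 libraries came from embryos at E14.5 on a mixed strain background, 3 in each of 2 groups. Control embryos had the genotype Le-Cre, a transgene that makes Cre recombinase in the surface ectoderm from which the lens forms, and their library titles call them wildtype. Mutant embryos carried Le-Cre with Etv4-/-, Etv5 fl/fl and Etv1 fl/fl, so that both groups had the transgene. Etv1, Etv4 and Etv5 are the Pea3 genes, which encode ETS transcription factors downstream of FGF signalling. Whether the libraries of a group stem from different embryos or from pools is not in the labels. P-values therefore cover the spread among these libraries, which may be partly technical.

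Crystallins are the soluble proteins that give the lens its refractive index. Gamma-crystallins are monomers built of Greek key domains, and most of them are made in elongating fibre cells and not in the epithelium. Cryga to Crygf arose by duplication of one ancestral gene, whereas Crygs and Crygn sit elsewhere in the genome, and Crygs is known as the gamma-crystallin of the later, outer lens. Inherited changes in these genes are a known cause of cataract in mouse and human. Their promoters are textbook targets of Sox, Maf and Pax6 factors, and FGF is the signal that starts fibre differentiation.

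In short, transcripts of Crygf were 6.69 times lower in mutant than in control libraries, with no overlap between the groups, and without passing the threshold over all genes in edgeR. The other clustered genes and Crygn stood at lower means in mutant libraries with overlapping values. Values of Crygb to Crygf are uncertain one by one, as the treatment of reads that match several genes is not given. Crygs had a mean of 525 CPM ± 118 for control and of 520 CPM ± 70.2 for mutant libraries (counts per 1e6 reads of the library, scaled by TMM factors, here CPM; SD, n = 3).

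Summed gene counts lay between 13364742 and 17301168 per library, and a chi-square test found replicates of a group further apart than counting error alone gives (28.1 to 136.9 per degree of freedom). Etv1, one of the deleted genes, ranged from 45.4 to 70.7 CPM in control and from 21.6 to 29.0 CPM in mutant libraries. Etv5 ranged from 168.2 to 245.5 CPM in control and from 82.9 to 116.2 CPM in mutant libraries. Etv4 was low in all libraries and not lower in mutant ones, at 2.13 to 3.21 CPM in control and 3.71 to 4.92 CPM in mutant libraries. Counts per gene do not show which exons the reads came from, so these 3 genes are only a partial check of the labels. Why counts remained in mutant libraries was not tested. Mutant library 1 differed from the other 5 libraries in sex, with 711 counts of Xist and 2 of Ddx3y. It thus cannot stem from the same embryo as mutant libraries 2 and 3 (521 and 799 counts of Ddx3y).

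The clustered genes are close copies, and 1 pair among them matters for reading the values. Coding sequences of Cryge and Crygf were 98.1% identical (515 of 525 bases, GENCODE M21), while Cryge and Crygd were 91.6% identical and the remaining pairs within Cryga to Crygf between 79.2% and 90.7%. Crygn and Crygs shared at most 60.4% with any other member. The longest stretch without a difference between Cryge and Crygf was 134 bases. The next lines show coding bases 204 to 303 of both, counted from the start codon, with their 4 differences in this stretch in capitals. Reads that cover such positions separate the genes.
Cryge: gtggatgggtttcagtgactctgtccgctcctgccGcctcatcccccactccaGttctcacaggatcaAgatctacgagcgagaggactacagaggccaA
Crygf: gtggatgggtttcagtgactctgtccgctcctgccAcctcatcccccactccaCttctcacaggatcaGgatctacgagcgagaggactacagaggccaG
Of all 50-base windows of a transcript, 34.9% for Crygf and 56.9% for Cryge were also found in another member, against 5.73% for Cryga and 0.0% for Crygn and Crygs. How the read counter treated reads that match several genes is not given in the sources used here, so values of Crygb to Crygf are uncertain one by one.

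Crygf and Cryge also have alike promoters, 80.7% identical over the aligned 250 bases before the start. Over the 120 bases before each start they were 73.9% identical, below the 83.7% of Crygd and Crygf. The following lines give aligned bases upstream of the annotated starts (RefSeq, build GRCm38.p6), at chr1:65051165-65051279 on the minus strand for Cryge and at chr1:65926392-65926506 on the plus strand for Crygf. Capitals mark the 7 differences among 115 bases. The stretch was picked as the part nearest the starts of the longest aligned block without gaps (209 of 230 bases identical). It lies 116 to 2 bases before the start of Cryge and 130 to 16 bases before that of Crygf.
Cryge: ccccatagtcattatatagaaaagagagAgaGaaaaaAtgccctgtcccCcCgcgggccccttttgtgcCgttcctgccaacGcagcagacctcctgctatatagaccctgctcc
Crygf: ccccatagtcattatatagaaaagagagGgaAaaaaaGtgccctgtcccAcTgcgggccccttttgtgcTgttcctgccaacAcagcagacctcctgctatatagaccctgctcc
Both stretches hold the letters TATATA on either side of CTTTTGT, which read on the other strand gives the motif ACAAAAG. These motifs were picked after the promoters had been read. The next lines show the 120 bases before the start of the highest member, Cryga (chr1:65103364-65103483, minus strand), of Crygb (chr1:65082291-65082410, minus strand) and of the members outside the cluster, Crygn (chr5:24757849-24757968, minus strand) and Crygs (chr16:22811411-22811530, minus strand). Capitals mark TATATA with its overlapping repeats and the stretch CTTTTGT or its shorter form CTTTGT.
Cryga: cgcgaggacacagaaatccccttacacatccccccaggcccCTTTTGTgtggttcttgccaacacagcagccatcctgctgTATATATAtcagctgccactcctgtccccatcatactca
Crygb: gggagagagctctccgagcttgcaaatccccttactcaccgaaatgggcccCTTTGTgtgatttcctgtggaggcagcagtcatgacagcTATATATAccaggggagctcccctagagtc
Crygn: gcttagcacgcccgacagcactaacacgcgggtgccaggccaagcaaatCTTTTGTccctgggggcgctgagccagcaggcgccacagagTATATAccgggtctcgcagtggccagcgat
Crygs: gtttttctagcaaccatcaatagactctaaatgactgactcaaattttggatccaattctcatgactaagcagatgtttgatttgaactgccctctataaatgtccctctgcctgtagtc
Searched on both strands in the 250 bases before the start, TATATA was found in 7 of the 8 members, all but Crygs, and in 5.25% of 32851 annotated promoters. ACAAAAG was found in 6 of 8, all but Crygb and Crygs, and in 4.40% of promoters. Of the motifs listed from textbook knowledge, the Pea3 type ETS motif AGGAAG was found in 1 member, Crygn, and in 29.5% of promoters, and the ETS motif CCGGAA in 0 members and 12.0% of promoters. The Maf type motif TGCTGA was in 4 members (16.1% of promoters) and the Sox type motif ACAAT in 4 (27.7%). Another Sox type motif, ACAAAG, was in 2 (16.5%). The TATA box letters TATAAA were in 1, Crygs (12.4%). Some of these motifs can overlap, and a match is only a match of letters.

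Gamma-crystallin transcripts were among the most abundant of the lens. By mean CPM over the 6 libraries, Cryga ranked 4 among all tested genes, Cryge 8, Crygc 9, Crygb 13, Crygn 15, Crygd 19, Crygf 111 and Crygs 161. To compare levels between genes, CPM were divided by transcript length in kb (GENCODE M21, between 613 and 875 bases). On this scale control libraries averaged 45860 ± 21800 for Cryga, 11510 ± 4750 for Cryge, 8419 ± 5890 for Crygb, 8344 ± 3960 for Crygc, 5014 ± 3000 for Crygd and 5003 ± 2450 for Crygn (SD, n = 3). Crygf followed at 1707 ± 864 and Crygs at 600 ± 135 (SD, n = 3). Cryga stood above every other member in each library. The levels of Cryge, Crygb, Crygc, Crygd and Crygn in control libraries lay within the spread of their neighbours in this order. In mutant libraries the means ran Cryga 25620 ± 16700, Cryge 7559 ± 4340, Crygc 4579 ± 2380, Crygb 3423 ± 2590, Crygd 2380 ± 1570, Crygn 2242 ± 1350, Crygs 595 ± 80.2 and Crygf 255 ± 194 (SD, n = 3). Crygf was above Crygs in each control library and below it in each mutant library, on the scale per kb.

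**Figure D1:**
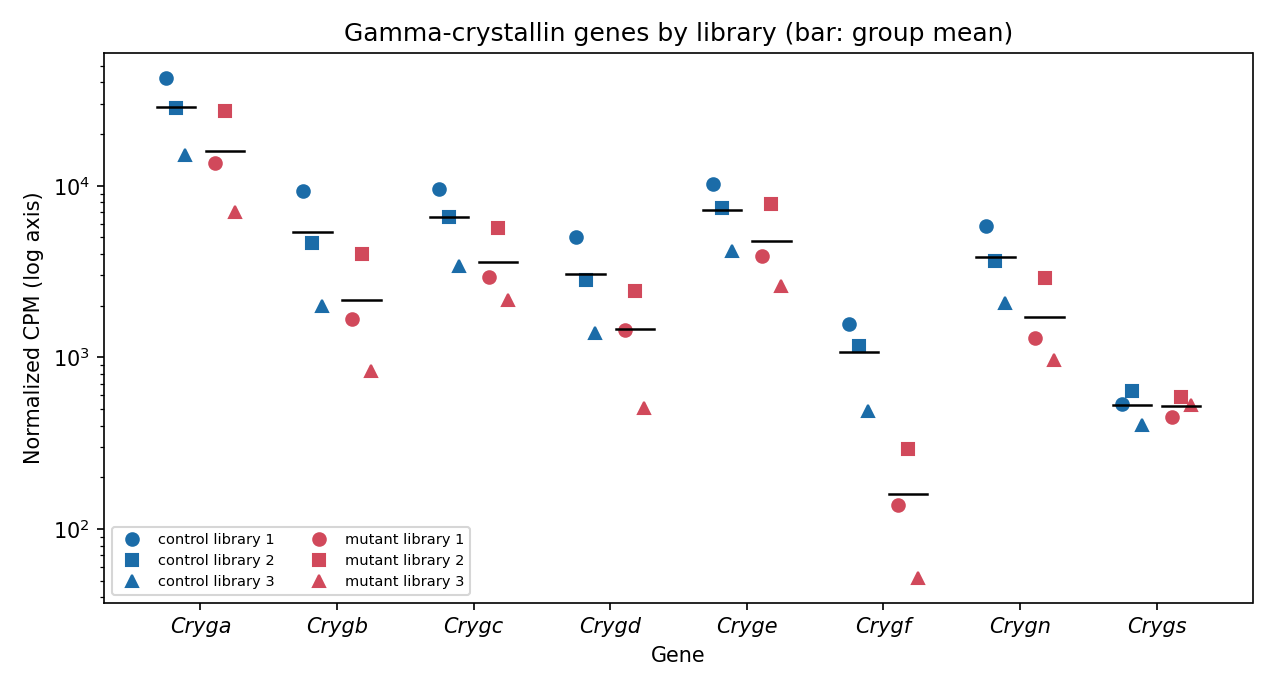
Normalized CPM (log axis) of the 8 genes in each library, with control libraries in blue, mutant libraries in red and bars at the group means. Crygf is the gene whose groups do not overlap (487.4 to 1558 CPM in control, 52.0 to 291.5 CPM in mutant libraries), and Crygs lies between 402.2 and 637.1 CPM in all 6 libraries.

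The family as a whole took a smaller, overlapping share of the mutant libraries. Gamma-crystallin counts made up 6.79%, 5.33% and 3.25% of control libraries 1, 2 and 3. They made up 2.89%, 4.64% and 1.63% of mutant libraries 1, 2 and 3. Mutant library 2 lay between control libraries 2 and 3. The mean was 5.12% ± 1.78 in control and 3.06% ± 1.51 in mutant libraries (SD, n = 3), which differ by -2.06 points (p = 0.2 by an exact two-sided permutation test). With 3 against 3 libraries this test cannot go below 0.1. The difference was -1.23 points without control library 1 and -1.35 points without mutant library 3. In bulk tissue, fewer fibre cells and less transcript per fibre cell cannot be told apart.

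Set against the summed counts of the other lens crystallins, the family was lower in mutant libraries without overlap. The most abundant genes weigh most in this sum. Cryaa averaged 138700 CPM in control libraries, with a log2 fold change of -0.12 ± 0.47 (SE). Gene by gene, the median log2 fold change was -0.85 for alpha- and beta-crystallins and -0.97 for gamma-crystallins. For every 100 counts of the 8 alpha- and beta-crystallin genes there were 22.0, 21.4 and 17.5 gamma-crystallin counts in control libraries 1, 2 and 3. In mutant libraries 1, 2 and 3 there were 15.4, 16.9 and 9.13. All mutant libraries lay below all control libraries, although mutant library 2 and control library 3 were 16.9 and 17.5. The means were 20.3 ± 2.47 and 13.8 ± 4.10 (SD, n = 3), a difference of -6.52 (exact two-sided permutation p = 0.1, the smallest this design allows). Over the fits that leave out 1 library the difference lay between -8.06 and -4.19, the latter without mutant library 3, which moves it by over 1.5 times. The plot of crystallin shares shows both quantities by library. Alpha- and beta-crystallins took 30.8%, 24.8% and 18.6% of control libraries 1, 2 and 3. Of mutant libraries 1, 2 and 3 they took 18.8%, 27.5% and 17.9%.

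**Figure D2:**
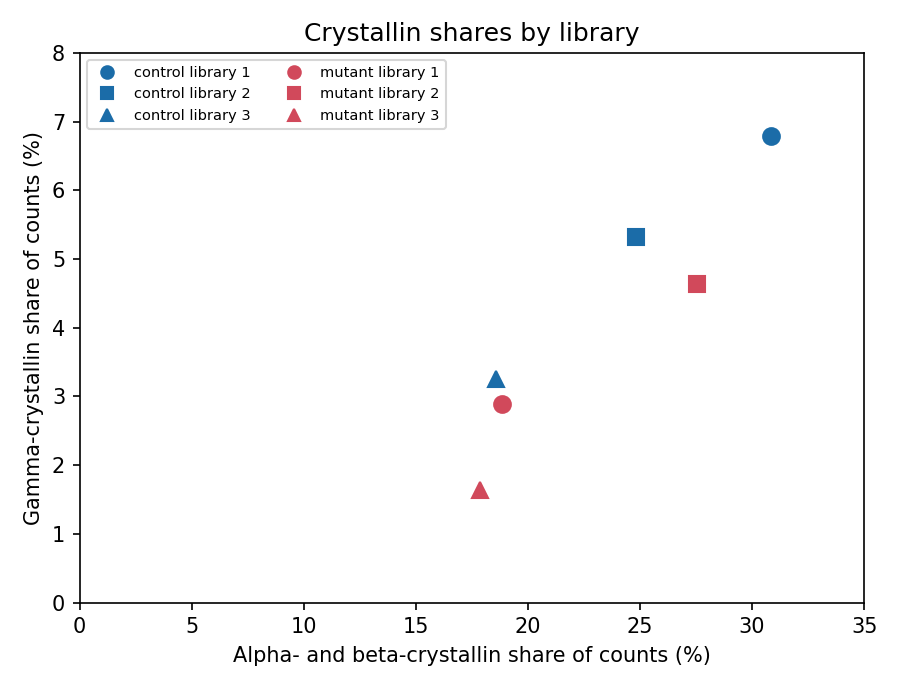
Share of library counts from the 8 gamma-crystallin genes (vertical axis, %) against the share from the 8 alpha- and beta-crystallin genes (horizontal axis, %), with 1 point per library. Control library 3 and mutant library 1 have nearly the same alpha and beta share (18.6% and 18.8%) and gamma shares of 3.25% and 2.89%.

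Crygf, which encodes gamma-F-crystallin, had the largest difference between groups of the 8 genes. It stood at 1558, 1166 and 487.4 CPM in control libraries 1, 2 and 3 and at 137.0, 291.5 and 52.0 CPM in mutant libraries 1, 2 and 3. These rest on between 954 and 20846 counts per library. Every mutant library lay below every control library, the nearest pair being control library 3 and mutant library 2. The log2 fold change was -2.74 ± 0.66 (SE; 95% interval -4.28 to -1.20), which did not pass over all genes tested (edgeR adjusted p = 0.0923). DESeq2 (adjusted p = 0.00793) and limma voom (adjusted p = 0.0188) called it lower, as did the authors' deposited table (adjusted p = 0.00862, log2 fold change -2.25). It also passed in edgeR without mutant library 2 (adjusted p = 0.0455, log2 fold change -3.50), where 2.10% of all tested genes were called lower. It did not pass without any other single library, where the log2 fold change lay between -3.09 and -2.32 and the adjusted p between 0.0984 and 0.276.

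None of the 8 genes passed in edgeR over all genes, where 272 of 12257 tested genes did (2.22%; 1.08% lower and 1.14% higher in mutant libraries). At an unadjusted p under 0.05 in edgeR there was 1 of 8, Crygf, against 16.2% of all tested genes in either direction and 8.27% lower. DESeq2 and limma voom each called 1 of 8 lower, again Crygf, where they called 3.43% and 3.36% of all tested genes lower. Groups did not overlap for 1 of 8, against 22.7% of all tested genes (11.3% lower), so the count of separated members is near the background. All 8 log2 fold changes were negative, against 49.8% of all tested genes, but 7 members moved together from library to library and Crygs changed sign with the setting (between -0.17 and 0.15 when single libraries were left out). The median log2 fold change of the 8 genes was -0.97, against 0.00 for all tested genes. It was -0.50 without control library 1 and -1.57 without mutant library 2.

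Crygn, which encodes gamma-N-crystallin, a member between the beta and gamma types, had 5818, 3634 and 2076 CPM in control libraries 1, 2 and 3. In mutant libraries 1, 2 and 3 it had 1300, 2906 and 960 CPM. Mutant library 2 lay above control library 3, and the other mutant libraries lay below all controls. Its log2 fold change was -1.16 ± 0.50 (SE; 95% interval -2.32 to 0.01; edgeR adjusted p = 0.310). It was -0.73 without control library 1 and -1.77 without mutant library 2.

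Cryga, the most abundant member, had 42452, 28348 and 15184 CPM in control libraries 1, 2 and 3 and 13601, 27417 and 7017 CPM in mutant libraries 1, 2 and 3. Cryge, the closest copy of Crygf, had 10170, 7433 and 4182 CPM in control and 3881, 7840 and 2589 CPM in mutant libraries 1, 2 and 3. For both genes mutant library 2 was near control library 2. The 5 genes Cryga to Cryge showed this order in common, with control library 1 highest and mutant library 3 lowest for each of them. Crygb ranged from 1988 to 9364 CPM in control and from 830 to 4002 CPM in mutant libraries, Crygc from 3398 to 9605 and from 2148 to 5689 CPM, and Crygd from 1384 to 5027 and from 504 to 2432 CPM. None of the 5 passed (edgeR adjusted p between 0.406 and 0.566). Their log2 fold changes were -0.84 ± 0.55 for Cryga, -1.30 ± 0.69 for Crygb, -0.87 ± 0.47 for Crygc, -1.08 ± 0.62 for Crygd and -0.61 ± 0.46 for Cryge (SE). Leaving out control library 1 or mutant library 2 moved each of the 5 by over 1.5 times, and leaving out mutant library 3 did so for Cryga, Crygd and Cryge. Over all such fits Cryga lay between -1.48 and -0.45, Crygb between -2.09 and -0.62 and Crygc between -1.37 and -0.48. Crygd lay between -1.66 and -0.53 and Cryge between -1.17 and -0.29. The 95% intervals reached from -2.90 (Crygb) to 0.47 (Cryge), so these libraries allow either a large decrease or none.

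Crygs, which encodes gamma-S-crystallin, kept a narrow range. It had 534.8, 637.1 and 402.2 CPM in control libraries 1, 2 and 3 and 447.1, 586.9 and 527.4 CPM in mutant libraries 1, 2 and 3. The groups overlapped throughout, and control library 3, the control lowest in all other members, was the lowest here. The log2 fold change was -0.01 ± 0.19 (SE; 95% interval -0.45 to 0.43; edgeR adjusted p = 0.983). As a description over the 6 libraries, the log2 CPM of Crygs correlated with those of the other members at Pearson r between 0.267 and 0.528. The other 7 genes correlated with each other at r between 0.859 (Cryge with Crygf) and 0.994 (Crygb with Crygc). All these values share the scaling of the libraries.

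**Figure D3:**
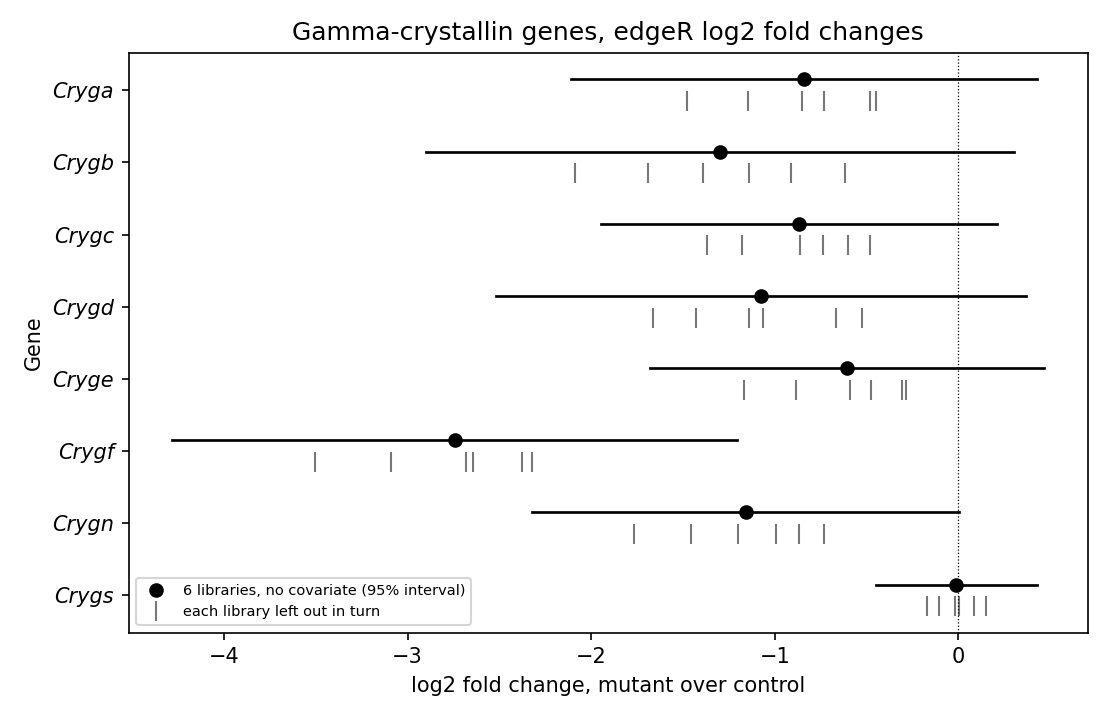
edgeR log2 fold changes (mutant over control) of the 8 genes, with points and 95% intervals for all 6 libraries and grey ticks for fits that leave out 1 library each. The Crygf interval (-4.28 to -1.20) and all its ticks lie below 0, while those of Crygs lie around 0.

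The composition of the family does not depend on how libraries are scaled, and in it Crygf differed most in proportion. Of all gamma-crystallin counts Crygf gave 1.84%, 2.11% and 1.68% for control libraries 1, 2 and 3. For mutant libraries 1, 2 and 3 it gave 0.539%, 0.570% and 0.356%. Its highest mutant share was thus below its lowest control share, and mutant library 2, the highest mutant library in summed gamma-crystallin share, had a Crygf share near that of mutant library 1. The means were 1.88% ± 0.219 for control and 0.488% ± 0.116 for mutant libraries (SD, n = 3; p = 0.1 by an exact two-sided permutation test, the smallest possible). In fits that leave out 1 library the difference in share lay between -1.49 and -1.27 percentage points.

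Cryge, in contrast, took a larger share in mutant libraries. A share can rise while its gene falls, and the log2 fold change of Cryge was -0.61 ± 0.46 (SE). Its share was 12.0%, 13.4% and 14.4% in control and 15.3%, 15.3% and 17.7% in mutant libraries 1, 2 and 3, without overlap (2.82 points higher on average; p = 0.1 by an exact two-sided permutation test). For every 100 counts of Cryge control libraries 1, 2 and 3 had 15.3, 15.7 and 11.7 of Crygf. Mutant libraries 1, 2 and 3 had 3.53, 3.72 and 2.01. Mean ratios were 14.2 ± 2.23 and 3.08 ± 0.937 (SD, n = 3). Among Cryga to Crygf, the pair with the most alike coding sequences thus held both the smallest and the largest log2 fold change. Whether reads were moved between these 2 genes by the mapping was not tested. With Cryge and Crygf summed, their joint share was higher in mutant libraries by 1.43 percentage points (exact two-sided permutation p = 0.3).

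Crygn took 6.88%, 6.57% and 7.13% of the family in control and 5.12%, 5.68% and 6.56% in mutant libraries 1, 2 and 3. The groups did not overlap, although mutant library 3 (6.561%) lay just below control library 2 (6.573%; p = 0.1 by an exact two-sided permutation test). Shares of Cryga (51.2% ± 0.978 and 51.7% ± 3.23), Crygb (8.78% ± 2.14 and 6.70% ± 1.08), Crygc (11.7% ± 0.286 and 12.4% ± 1.96), Crygd (5.26% ± 0.616 and 4.62% ± 1.12) and Crygs (1.06% ± 0.384 and 2.17% ± 1.28) overlapped between control and mutant libraries (mean ± SD, n = 3). All 8 shares were tested, and none can pass a threshold of 0.05 in a design of this size. With Benjamini-Hochberg adjustment over the 8, the permutation p was 0.267 for Cryge, Crygf and Crygn, the lowest of the shares.

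**Figure D4:**
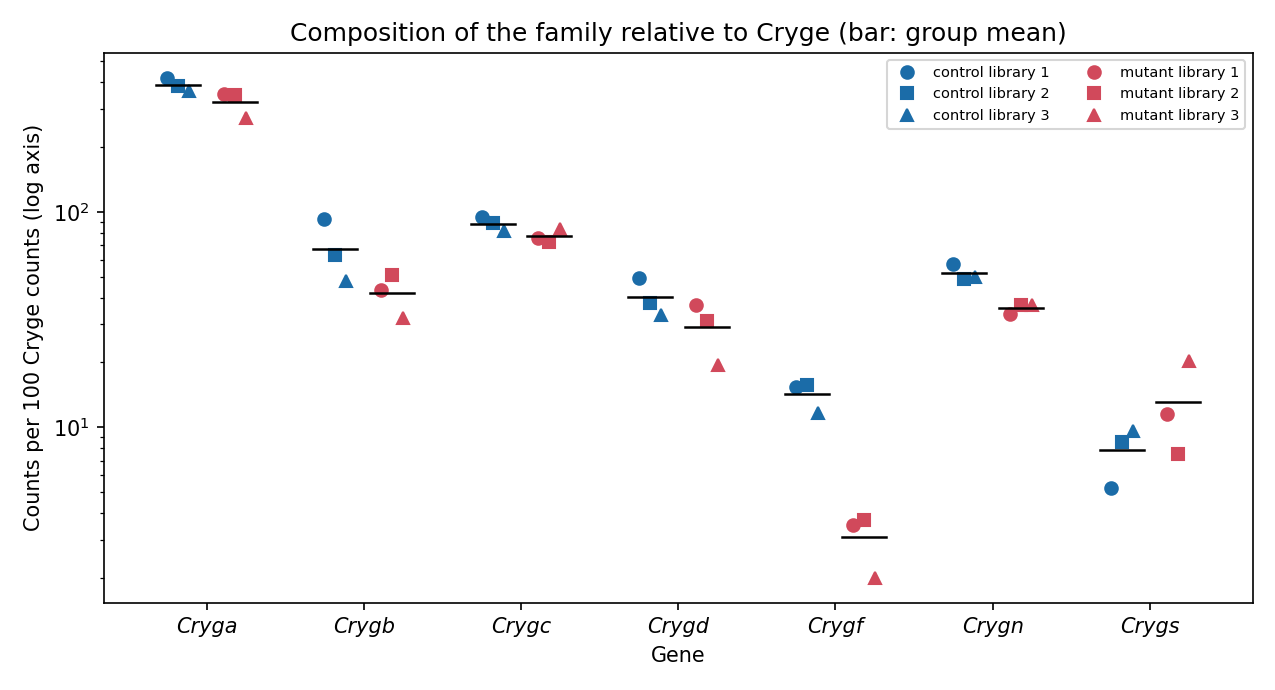
Counts of each gene per 100 counts of Cryge in the same library (log axis), with control libraries in blue, mutant libraries in red and bars at the group means. Crygf moves from 11.7 to 15.7 in control down to 2.01 to 3.72 in mutant libraries, while Crygc lies between 72.6 and 94.4 in all 6. The groups do not overlap either for Cryga (363.1 to 417.4 in control, 271.1 to 350.5 in mutant libraries). The same holds for Crygn (48.9 to 57.2 in control, 33.5 to 37.1 in mutant libraries).

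The libraries differed in crystallin content within each group, so the fit over all genes was repeated with the log2 of the alpha- and beta-crystallin share as a covariate. This fit was added after seeing the data, and the covariate is itself a lens readout that may differ between groups. In it 2 of the 8 genes were called lower, Crygf and Crygn, where 3.92% of all tested genes were. On the log2 scale Crygf fell by 2.29 ± 0.32 (SE; edgeR adjusted p = 0.00705) and Crygn fell by 0.74 ± 0.14 (SE; edgeR adjusted p = 0.00827). Crygb (-0.65 ± 0.20; edgeR adjusted p = 0.0733), Crygc (-0.43 ± 0.15; edgeR adjusted p = 0.109), Cryga (-0.43 ± 0.21), Crygd (-0.53 ± 0.32) and Cryge (-0.24 ± 0.16) did not pass (log2 fold change ± SE). Crygs stood at 0.10 ± 0.16 on the same scale (edgeR adjusted p = 0.767).

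Of the 8 listed alpha- and beta-crystallins, 1 passed the test, Crybb2, and it was lower in mutant libraries. Over all tested genes 1.08% were called lower. The median log2 fold change of the list was -0.85. Crybb2, a beta-crystallin gene low at this stage, averaged 9.65 CPM ± 1.01 for control and 2.10 CPM ± 0.571 for mutant libraries (SD, n = 3), with edgeR adjusted p = 0.0114. It no longer passed when control library 2, control library 3 or mutant library 3 was left out (edgeR adjusted p between 0.0509 and 0.0730). Neither of the most abundant genes of the list passed, Cryaa at a log2 fold change of -0.12 ± 0.47 and Cryba1 at -0.48 ± 0.46 (SE).

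Known regulators of gamma-crystallin genes mostly did not pass. Of 25 listed and tested, 1 rose, 1 fell and 23 did not pass, with a median log2 fold change of -0.25. Over all tested genes 1.14% were called higher and 1.08% lower. Sox3, which encodes a SoxB1 factor, was the gene that rose, with 1.01 CPM ± 0.562 for control and 6.78 CPM ± 1.31 for mutant libraries (SD, n = 3). Its log2 fold change was 2.72 ± 0.50 (SE), with edgeR adjusted p = 0.0313. Gata3, needed for fibre cells to leave the cell cycle, was the gene that fell, with 78.8 CPM ± 9.07 for control and 33.5 CPM ± 5.71 for mutant libraries (SD, n = 3). Its log2 fold change was -1.23 ± 0.17 (SE), with edgeR adjusted p = 0.00894. Sox3 no longer passed when control library 2, control library 3, mutant library 1 or mutant library 3 was left out (edgeR adjusted p between 0.0595 and 0.148). For Gata3 this held for control library 2 (0.0580) and mutant library 3 (0.0595). The most abundant of the list, Tdrd7 and Celf1, which encode RNA-binding proteins of fibre cells, did not pass, at log2 fold changes of -0.59 ± 0.42 for Tdrd7 and -0.34 ± 0.21 for Celf1 (SE). The factors best known at gamma-crystallin promoters were named after their values were seen, and none passed. Their log2 fold changes were 0.29 ± 0.15 for Sox1, -1.92 ± 0.54 for Sox2, -0.43 ± 0.19 for Maf, -0.44 ± 0.15 for Prox1 and 0.15 ± 0.18 for Pax6 (SE).

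Genes of the fibre membrane, cytoskeleton and cell cycle exit had a lower summed level in each mutant library than in any control. Taken singly, 11.3% of all tested genes also lay lower without overlap. For the fibre list the sum was 20800, 14510 and 13320 CPM in control libraries 1, 2 and 3. In mutant libraries 1, 2 and 3 it was 6546, 11500 and 6802 CPM. The most abundant genes weigh most in this sum. Of the 17 listed genes 14 were tested. Of these 3 fell, Bfsp2, Grifin and Cdkn1c, and 11 did not pass. Over all tested genes 1.08% were called lower. The median log2 fold change was -0.98. Bfsp2, which encodes the beaded filament protein phakinin, averaged 422 CPM ± 193 for control and 14.45 CPM ± 7.30 for mutant libraries (SD, n = 3; edgeR adjusted p = 0.00464). The embryos were on a mixed strain background, and whether strain alleles of Bfsp2 differed between the groups was not tested. Grifin, which encodes a lens galectin, and Cdkn1c, a cell cycle inhibitor gene, had log2 fold changes of -1.01 ± 0.15 (edgeR adjusted p = 0.0120) and -1.17 ± 0.17 (edgeR adjusted p = 0.0121; SE). Grifin no longer passed when control library 2, mutant library 1 or mutant library 3 was left out, nor Cdkn1c without control library 2 or mutant library 1 (edgeR adjusted p between 0.0614 and 0.0841). Lim2, an abundant gene of the fibre membrane, stood at a log2 fold change of -1.27 ± 0.52 (SE) and did not pass. The lens epithelium list has Col4a1 and Pax6 as its most abundant genes. It summed to between 1751 and 2653 CPM in control and between 1615 and 1730 CPM in mutant libraries. This sum was thus also lower in mutant libraries without overlap, and 0 of 9 genes passed in edgeR.

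Among markers of other tissues and cells, those of blood and vessels had the highest sums. Surface ectoderm and cornea markers summed to between 3.36 and 13.0 CPM in control and between 8.41 and 17.3 CPM in mutant libraries (4 of 8 tested, 1 at 0 in every library). Retina markers summed to between 3.51 and 17.8 CPM and between 7.26 and 13.0 CPM (1 of 10 tested, 2 at 0 in every library), and markers of periocular mesenchyme to between 5.88 and 21.4 CPM and up to 15.5 CPM (5 of 10 tested). Macrophage markers summed to between 1.28 and 9.79 CPM in control and between 4.37 and 33.4 CPM in mutant libraries (6 of 8 tested, all with positive log2 fold changes). Blood and vessel markers summed to between 85.5 and 194.3 CPM for control and between 106.2 and 325.0 CPM for mutant libraries, with mutant library 3 highest (4 of 10 tested, 1 at 0 in every library). None of these markers passed in edgeR, and their part in the gamma-crystallin values was not tested.

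In gene order (RefSeq, GRCm38.p6), Cryge, Crygd, Crygc, Crygb and Cryga follow each other on chromosome 1, all on the minus strand. Crygf lies apart from them on the plus strand, beyond the protein-coding genes D630023F18Rik, Idh1, Pikfyve and Pth2r. Of these, D630023F18Rik, Idh1 and Pikfyve were tested and none passed, with 0.05 ± 0.27, 0.15 ± 0.13 and 0.13 ± 0.19 as their log2 fold changes (SE). Map2, on the other side of Crygf, had 0.24 ± 0.75 (SE). These neighbours were read after the values of Crygf were known.

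Crystallins and genes with predicted, clone, antisense, pseudogene or small RNA names were left out of a ranking by likeness. Among the rest, the 10 genes whose log2 CPM followed the summed gamma-crystallin level most closely had Pearson r between 0.987 and 0.997 over the 6 libraries. They were Trim3, Epb4.9, Elac2, Coq9, Pelo, Ap4s1, Cdk13, Pdrg1, Cdk11b and Zfp119a. Epb4.9, the gene of the actin-bundling membrane skeleton protein dematin, had 119.1, 67.7 and 41.1 CPM in control and 34.2, 71.7 and 21.3 CPM in mutant libraries 1, 2 and 3. These genes were picked for their likeness over 6 libraries out of the ranked genes with a mean of at least 5 CPM. None of the 10 passed in edgeR between the groups (adjusted p between 0.446 and 0.793). They were picked to follow a level that overlaps between the groups, so this is no separate observation.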

How the data were processed

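RNA of 3 control and 3 mutant samples was amplified with a SMART-seq type kit and sequenced after tagmentation, per the labels' protocols. Such kits use no molecular identifiers and do not mark strand. The build mm9 and the tools TopHat, Cufflinks, DESeq and bcl2fastq 1.8.4 stand in the submitters' processing notes, with no roles. No source used here names the read counter or the annotation. Raw counts by gene symbol were deposited by the authors for each library and as 1 table, with 0 values differing between them. The authors' deposited table of their comparison holds a mean normalized count (a signal over libraries), log2 fold changes with standard errors, a test score and p-values. Its positive log2 values stand for higher counts in mutant libraries.

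Counts were fitted with edgeR 4.0.16 in R 4.3.3 (filterByExpr with minimum count 10 and total 15, TMM, robust quasi-likelihood F test, no covariates). The Benjamini-Hochberg adjustment ran over the 12257 tested genes, at a threshold of 0.05. Standard errors came from the F statistic. Shares were compared by exact permutation tests. DESeq2 1.42.0 and limma 3.58.1 were alternatives, and the procedure was tested on simulated counts. The floor of 3 counts corresponds to 0.173 to 0.224 CPM by library and covers counting error only. The members and the 10 gene lists were chosen with earlier results of these data known. The text names all 8 members, and of each list the 2 genes of highest mean CPM and those past the threshold. Markers of other tissues and cells are given only as sums, and other genes are marked as chosen with their values known. A gene that this rule names is not reported here. Genes most alike were the 10 of highest Pearson r with the summed gamma-crystallin CPM. Crystallins and genes with predicted, clone, antisense, pseudogene or small RNA names were left out of that ranking. Sequences are from RefSeq promoters (GRCm38.p6) and GENCODE M21 transcripts, matched by symbol for all 8 members, and a build other than the authors'.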

Additional observations from a re-analysis of the deposited data

How the results depend on the processing

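Crygf kept its direction under every alternative run, with log2 fold changes between -3.50 and -2.29. It passed the threshold with DESeq2 (-2.75), limma voom (-3.10), the replicate block (-2.92; edgeR adjusted p = 0.0144), the crystallin covariate added after seeing the data (-2.29), and without mutant library 2 (-3.50). It did not pass without a filter (edgeR adjusted p = 0.282) or with a filter of 5 CPM in 3 libraries (edgeR adjusted p = 0.0936). Nor did it pass with DESeq2 size factors (edgeR adjusted p = 0.0920) or scaling without the 16 crystallin genes (edgeR adjusted p = 0.0917). Over the fits that leave out 1 library it lay between -3.50 and -2.32. Crygn passed only with the covariate (-0.74). Crygs turned sign with the replicate block (0.0042) and the covariate (0.10), and lay between -0.17 and 0.15 when single libraries were left out. Within the family, the Cryga difference lay between -0.47 and 2.34 percentage points and that of Crygc between -0.35 and 1.43 in those fits. For Crygf and Cryge summed it was 1.43. The number of called genes was 122 with the replicate block (68 higher, 54 lower), 821 with DESeq2 (401 and 420), 801 with limma voom (389 and 412), 883 with the covariate (403 and 480), and between 91 and 479 with 1 library left out, against 272 (140 and 132). The replicate numbers are shared by the groups, but same-numbered libraries deviated together with correlations of -0.284, -0.147 and 0.219, so the numbers were not taken to pair the libraries. Cryga to Cryge kept their direction and stayed above the threshold in every fit. Sox3, Gata3, Grifin, Cdkn1c and Crybb2 kept their direction, each losing its call in some fits, and Bfsp2 kept its call in all. Exact tests of shares could not pass at this sample size.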

Other observations

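Genes that carry the crystallin fold outside the lens crystallins were low in these libraries. Aim1 had 2.65 CPM ± 1.03 for control and 1.96 CPM ± 0.994 for mutant libraries, and Crybg3 2.58 CPM ± 0.427 and 1.47 CPM ± 0.499 (mean ± SD, n = 3). Neither passed in edgeR (log2 fold changes -0.44 ± 0.55 and -0.81 ± 0.47, SE). In the authors' deposited table, Cryge had a log2 fold change of -0.58 (adjusted p = 0.465) and Crygs one of -0.01 (adjusted p = 0.990).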
